A study of Mus musculus with 6 samples.

Results

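The genes described here are 10 regulators of the smooth muscle cell state: Myocd, Srf, Mef2c, Mir143hg, Mir145, Prdm6, Klf4, Klf5, Tbx18 and Foxo1. They were taken by symbol from a table of 23420 gene symbols, and all 10 were found in it and were counted deeply enough to be tested. They were chosen by name with earlier results of the same comparison known, so their values describe them and their number of calls is support for nothing. RNA was sequenced from 6 aortic roots, the first stretch of the aorta with the aortic valve and bordering heart muscle, of mice on a C57Bl6/J background. In 3 libraries the label gives both copies of Sost as knocked out (Sost-/-, KO 1 to KO 3 here) and in 3 as intact (Sost+/+, WT 1 to WT 3). All of these mice were 12 months old and had eaten the diet TestDiet 5TJT, high in cholesterol, from the age of 4 months, which makes 8 months on it. The labels neither describe the allele nor name animals, and the spread behind each p-value is that between roots. The question is how the roots of the 2 genotypes differ on this diet.

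Smooth muscle cells of the vessel wall hold their contractile genes in an active state through serum response factor (SRF), which binds a DNA element called the CArG box, and through its muscle coactivator myocardin (Myocd). A host transcript, Mir143hg (also named Carmn), carries the microRNAs miR-143 and miR-145, which are known to favour the contractile state and to repress Klf4 and Klf5. KLF4 and KLF5 are zinc finger factors that oppose myocardin when smooth muscle cells leave the contractile state, and in mouse embryos PRDM6 and TBX18 act in smooth muscle and mural cell development.

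The promoter of Srf is shown because it holds the element that its own protein binds, and that of Myl9, a myosin light chain gene, because it is a contractile gene whose promoter window held one too. Each window runs from 250 bases before to 50 bases after an annotated start of the gene (RefSeq, GRCm38.p6). It is written 5′ to 3′ on the gene's strand and has CArG boxes in capitals. A gene can have several starts, and the RefSeq span of Srf reaches beyond its window, to 46558267. Srf lies at chr17:46556113-46556412 on the minus strand, and Myl9 at chr2:156775214-156775513 on the plus strand.
Srf: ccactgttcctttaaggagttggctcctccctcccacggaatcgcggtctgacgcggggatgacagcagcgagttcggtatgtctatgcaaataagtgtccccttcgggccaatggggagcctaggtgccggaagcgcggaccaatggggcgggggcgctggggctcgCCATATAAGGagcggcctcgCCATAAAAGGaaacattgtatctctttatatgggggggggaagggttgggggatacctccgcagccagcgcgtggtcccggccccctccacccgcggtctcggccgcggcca
Myl9: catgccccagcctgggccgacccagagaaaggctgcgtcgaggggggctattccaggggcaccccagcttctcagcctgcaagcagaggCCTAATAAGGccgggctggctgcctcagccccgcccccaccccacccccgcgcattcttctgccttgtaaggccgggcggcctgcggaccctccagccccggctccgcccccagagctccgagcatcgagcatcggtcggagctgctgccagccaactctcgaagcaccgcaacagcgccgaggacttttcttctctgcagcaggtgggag

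The CArG boxes of Srf begin at -82 and -62 from the start used for its window, and that of Myl9 begins at -161. Of 32851 promoter windows of all genes, 1.63% held a CArG box on either strand and 6 held at least 2, among them that of Srf. Of 16 windows of 14 contractile genes, 1 held a box, and of 7 windows of 5 regulator genes (Srf, Klf4, Tbx18, Mef2c and Foxo1), 1 did. Only the exact form CC(A/T)6GG was counted as a box, so forms that differ from it by a base were not counted. The same 7 windows held no MEF2 box (0.557% of all windows) and no FOXO motif GTAAACA on either strand (3.65% of all windows). The motifs do not overlap in the windows shown, and a match is a description of letters, not of binding. Windows of the other regulator genes, and of Tagln, Myh11 and Actg2 among the contractile genes, were not used here.

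Total counts ran from 38870673 to 41803775 in KO and from 37023586 to 48172863 in WT libraries. The targeted gene went against the labels: Sost had 2284, 1063 and 513 counts in KO 1 to KO 3, against 354, 621 and 274 in WT 1 to WT 3 (log2 fold change 1.56, SE 0.48, edgeR adjusted p = 0.124). Each direction given here is therefore for libraries labelled Sost-/- against libraries labelled Sost+/+. In counts, 2 of the KO libraries lay above every WT library and the remaining one within the WT range, and a gene-level count does not show which part of Sost the reads cover. The 17 smooth muscle contractile genes summed to 5777 to 8097 CPM in KO and 2875 to 4218 CPM in WT libraries, where CPM denotes counts scaled to library size. The 18 cardiomyocyte markers summed to 65113 to 79922 CPM in KO and 97311 to 105460 CPM in WT libraries, and no marker of either list was at 0. The 9 adipocyte markers summed to 681, 1547.5 and 1141 CPM in KO 1 to KO 3 and to 920, 839 and 526 CPM in WT 1 to WT 3, with KO 1 inside the WT range. Of them 0 passed in edgeR, although all 9 had a positive log2 fold change, with a median of 1.40. In bulk tissue, more cells of a type and more RNA per cell cannot be told apart, and the part of these markers in the results below was not tested.

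Among the 10 regulators, 4 rose in the libraries labelled Sost-/-: Mir143hg, Mir145, Prdm6 and Tbx18. The other 6, among them Myocd, Srf and Klf4, did not pass the test. None fell (1 had a negative fold change at an unadjusted p under 0.05 in edgeR, and DESeq2 called 0 lower). Each p comes from edgeR's quasi-likelihood fit to all 15096 tested genes, adjusted by Benjamini-Hochberg, with a threshold of 0.05. That fit called 2.55% of all tested genes, 2.18% as higher and 0.371% as lower, while 20.2% had an unadjusted p under 0.05, and DESeq2 called 7.83%. The groups did not overlap for 7 of the 10 regulators, as for 25.4% of all tested genes. Since the choice of genes was made with this contrast known, nothing is read from these shares.

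**Figure D1:**
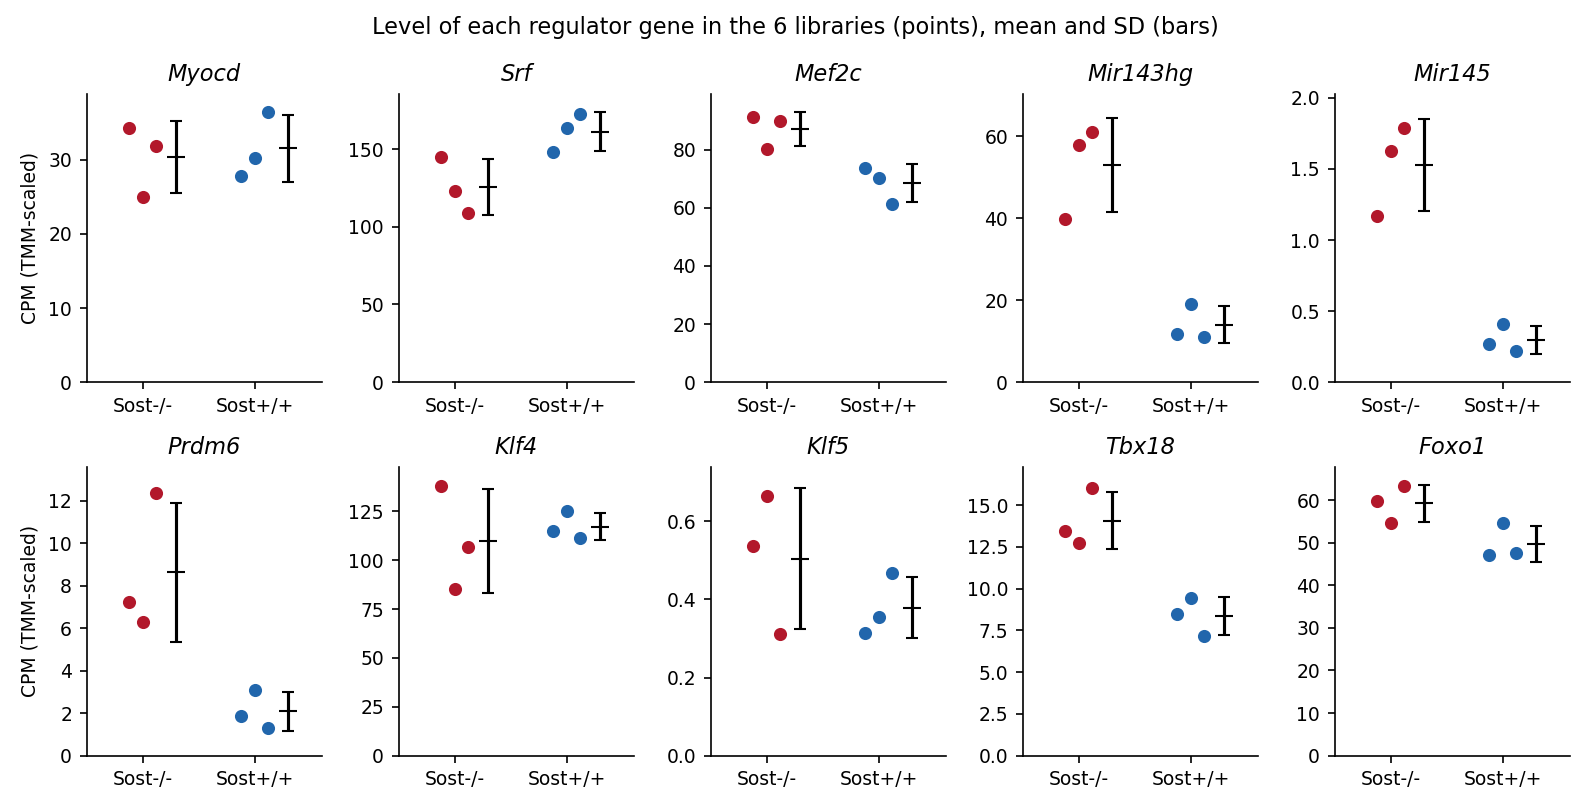
CPM (linear axis from 0) of each regulator gene, with KO libraries (Sost-/-) left and WT libraries (Sost+/+) right; points are libraries, and the bar beside them is the mean with its SD (n = 3). The KO points of Mir143hg, Mir145, Prdm6 and Tbx18 all lie above the WT points, whereas those of Myocd, Klf4 and Klf5 overlap with them.

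Myocd encodes myocardin, the coactivator that brings SRF to contractile genes. Its place is chr11:65176561-65269989, minus strand (GENCODE M21 on GRCm38, ENSMUSG00000020542.18). It had 34.3, 25.0 and 31.9 CPM in KO 1 to KO 3, against 27.8, 30.3 and 36.5 CPM in WT 1 to WT 3, from 1012 to 1469 counts in KO and 1191 to 1330 counts in WT libraries. The 2 groups lay in the same range. Means were 30.4 ± 4.85 CPM in KO and 31.5 ± 4.49 CPM in WT libraries (SD, n = 3 each), with a log2 fold change of -0.05 (SE 0.14, edgeR adjusted p = 0.868). The 95% interval of that fold change ran from -0.37 to 0.27. Its sign turned without WT replicate 3 (0.059) and without KO replicate 2 (0.071).

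Srf (chr17:46548329-46556175, minus strand, ENSMUSG00000015605.6) had 145.1, 123 and 109 CPM in KO 1 to KO 3. It had 148, 164 and 172 CPM in WT 1 to WT 3. The groups did not overlap, although KO 1 and WT 1 lay close together. Its log2 fold change of -0.36 (SE 0.12) did not pass (edgeR adjusted p = 0.144, unadjusted p = 0.0139), with a 95% interval from -0.63 to -0.09. DESeq2 without KO replicate 1, an alternative added after seeing the data, called it (-0.49, adjusted p = 0.00279).

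Mef2c encodes a MADS-box factor of the same family as SRF that acts in heart, vessel and skeletal muscle development. Its place is chr13:83504034-83667080, plus strand (ENSMUSG00000005583.16). Its level was 91.1, 80.3 and 89.8 CPM in KO 1 to KO 3, and 73.8, 70.3 and 61.2 CPM in WT 1 to WT 3, so that the lowest KO library lay above the highest WT library. The log2 fold change was 0.35 (SE 0.10, 95% interval 0.13 to 0.57) and did not pass in edgeR (adjusted p = 0.103), whereas DESeq2 gave an adjusted p of 0.0474 at a log2 fold change of 0.34. Over 14 alternatives the adjusted p ran from 0.0474 to 0.352.

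Mir143hg, the host transcript of the pair of microRNAs, had the smallest p of the 10 genes. RefSeq places it at chr18:61645878-61665538, a span that contains Mir145 (61647825 to 61647894) and Mir143 (61649196 to 61649258), all on the minus strand on GRCm38. GENCODE M21 gives a shorter lincRNA under the name Carmn (ENSMUSG00000097324.8, 61649625 to 61665537) that contains neither hairpin. Counts of Mir143hg were 1705, 2350 and 2556 in KO 1 to KO 3, against 529, 754 and 402 in WT 1 to WT 3. That is 39.8, 58.0 and 61.0 CPM in KO libraries and 11.9, 19.2 and 11.0 CPM in WT libraries. The lowest KO library was above the highest WT library, and the log2 fold change was 1.92 (SE 0.23, 95% interval 1.40 to 2.43, edgeR adjusted p = 0.0119), or 3.77-fold. Bvht, the Braveheart lncRNA on the opposite strand, overlaps the RefSeq span of Mir143hg but does not reach the shorter GENCODE span. Overlap with RefSeq exons of Mir143hg was not checked.

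Mir145, the gene of the miR-145 hairpin, moved with its host. Its counts were 50, 66 and 75 in KO 1 to KO 3 and 12, 16 and 8 in WT 1 to WT 3, and the groups did not overlap. It rose by 2.34 on the log2 scale (SE 0.35, 95% interval 1.54 to 3.14, edgeR adjusted p = 0.0184), from far fewer counts than its host. These are reads of a long-RNA library over a hairpin of 70 bases inside the host, so they may be reads of the host transcript and do not measure mature miR-145. There were 2.93, 2.81 and 2.93 Mir145 counts per 100 Mir143hg counts in KO 1 to KO 3, against 2.27, 2.12 and 1.99 in WT 1 to WT 3. Exact binomial 95% intervals of this ratio ran from 2.16 to 3.88 over the KO and from 0.853 to 4.00 over the WT libraries. These are intervals of single libraries and cover counting error only. Every KO ratio lay above every WT ratio, and the difference in the ratio was not tested. Mir143, which is not among the 10 and was added after its values were seen, had 21, 19 and 14 counts in KO and 6, 3 and 2 counts in WT libraries (log2 fold change 2.21, SE 0.50) and did not pass (edgeR adjusted p = 0.0556).

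Prdm6 encodes a PR domain factor that is known in smooth muscle cells as a repressor of the contractile programme. It is a gene of chromosome 18 too (chr18:53463583-53575907, plus strand, ENSMUSG00000069378.14). Counts were 310, 255 and 519 in KO 1 to KO 3, against 84, 122 and 47 in WT 1 to WT 3, or 7.24, 6.29 and 12.4 CPM against 1.88, 3.10 and 1.29 CPM. KO 3 stood well above the other KO libraries, and the groups did not overlap. Prdm6 rose by 2.04 on the log2 scale (SE 0.35, 95% interval 1.26 to 2.82, edgeR adjusted p = 0.0246), or 4.12-fold, and by 1.69 without KO replicate 3 (adjusted p = 0.0851).

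Klf4 (chr4:55527143-55532466, minus strand, ENSMUSG00000003032.8) had 138, 85.1 and 107 CPM in KO 1 to KO 3. It had 115, 125 and 111 CPM in WT 1 to WT 3, all within the KO range. The log2 fold change was -0.09 (SE 0.16, 95% interval -0.45 to 0.26, edgeR adjusted p = 0.775), and its sign turned without KO replicate 2 (0.060). The spread among libraries was 24.2% of the mean in KO and 6.01% in WT libraries (coefficient of variation, n = 3 each). Summed levels of 15 immediate early genes, which respond within minutes to handling and growth signals and include Fos and Egr1, were 1042, 599 and 767 CPM in KO 1 to KO 3. They were 755, 770 and 808 CPM in WT 1 to WT 3. KO 1 was highest and KO 2 lowest in both measures. Among WT libraries, however, WT 3 was highest in the immediate early sum and lowest in Klf4. The part of these genes in the level of Klf4 was not tested.

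Klf5 was barely detected, with 23, 27 and 13 counts in KO 1 to KO 3 and 14, 14 and 17 counts in WT 1 to WT 3. Its place is chr14:99298691-99315036, plus strand (ENSMUSG00000005148.8). The groups overlapped, and the log2 fold change of 0.42 (SE 0.41, edgeR adjusted p = 0.602) had a 95% interval from -0.50 to 1.34, which in folds runs from 0.705 to 2.53.

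Tbx18 encodes a T-box factor of the epicardium, pericytes and some smooth muscle cells. Its place is chr9:87702800-87731260, minus strand (ENSMUSG00000032419.8), and an annotated transcript on the opposite strand (D030062O11Rik) overlaps its exons. It had 13.5, 12.7 and 16.0 CPM in KO 1 to KO 3, against 8.45, 9.41 and 7.16 CPM in WT 1 to WT 3, without overlap. It rose by 0.75 on the log2 scale (SE 0.14, 95% interval 0.43 to 1.07, edgeR adjusted p = 0.0324), or 1.69-fold. The 8 mesothelial and epicardial markers summed to 29.3, 23.2 and 138 CPM in KO 1 to KO 3 and to 26.3, 36.5 and 47.1 CPM in WT 1 to WT 3, none of them at 0 in any library. Of these 8, 7 had a positive log2 fold change and the median was 0.87, but 0 passed in edgeR. KO 3 was thus highest both in Tbx18 and in these markers. Among WT libraries, WT 3 was highest in the markers and lowest in Tbx18. KO 1 and KO 2 were not above the WT range in the markers but were above it in Tbx18. The part of the markers in the result was not tested. Without KO replicate 3 the log2 fold change of Tbx18 was 0.65 (adjusted p = 0.158). The 10 pericyte and mural markers summed to 830 to 1063 CPM in KO and 764 to 837 CPM in WT libraries, with a median log2 fold change of 0.10. Of them 1 rose, Cspg4, a proteoglycan gene of pericytes (0.92, SE 0.17, edgeR adjusted p = 0.0279), and 9 did not pass, 4 of them with a negative log2 fold change (DESeq2 called 3).

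Foxo1 encodes a forkhead factor that insulin and growth factor signals keep out of the nucleus. Its place is chr3:52268336-52353221, plus strand (ENSMUSG00000044167.6), where an antisense transcript (Gm20402) overlaps an exon. It had 59.8, 54.7 and 63.3 CPM in KO 1 to KO 3, against 47.0, 54.7 and 47.5 CPM in WT 1 to WT 3. KO 2 and WT 2 were nearly level, and the log2 fold change of 0.25 (SE 0.10, 95% interval 0.04 to 0.47) did not pass (edgeR adjusted p = 0.186).

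**Figure D2:**
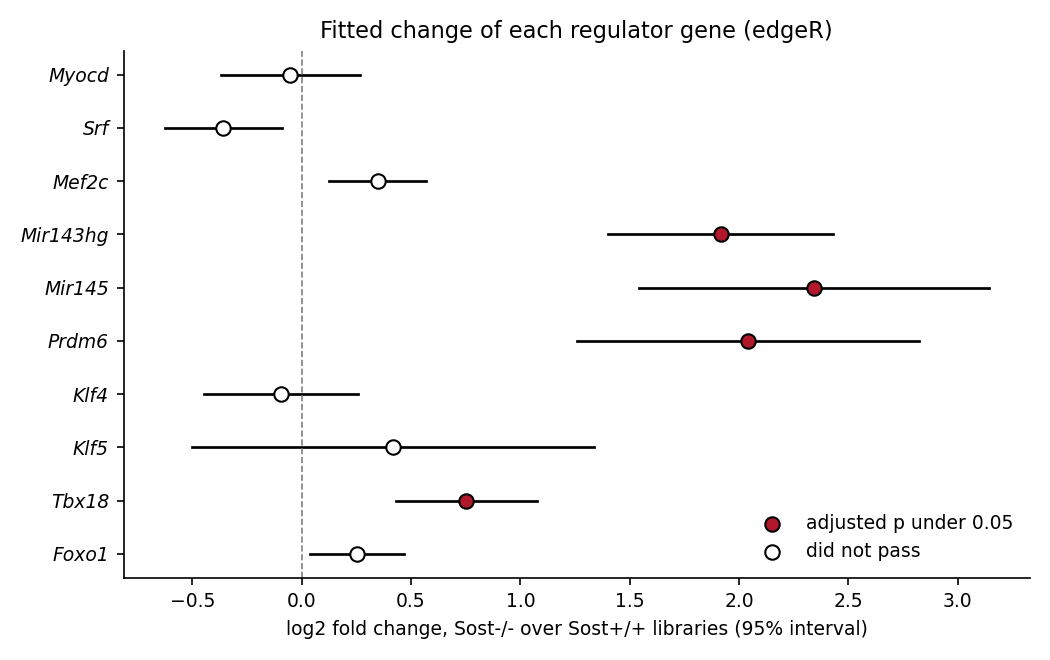
Log2 fold change of each regulator gene, Sost-/- over Sost+/+ libraries, from edgeR; bars are 95% intervals, not adjusted for the number of genes, and filled points passed at an adjusted p under 0.05. Mir143hg, Mir145 and Prdm6 lie near 2 and Tbx18 at 0.75, while Myocd and Klf4 lie close to 0 and Srf at -0.36.

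All 4 calls rested on particular libraries in edgeR. Without WT replicate 1 it called 0 of the 10 regulators, as it did 0% of all genes, with 6 at an unadjusted p under 0.05 (14.7% of all genes) and 5 called by DESeq2 (4.34% of all genes). Without KO replicate 3 it called 0 of the 10 (0.0655% of all genes), with 5 at an unadjusted p under 0.05 (11.2% of all genes) and 4 called by DESeq2 (2.45% of all genes). Without WT replicate 3 it called 1, Mir143hg (0.768% of all genes), and the call of Tbx18 also ended without KO replicate 1 (adjusted p = 0.0523). DESeq2 called Mir143hg, Mir145, Prdm6 and Tbx18 in each of its 6 leave-outs.

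Levels per length order the genes differently from their changes. Per kilobase of annotated exon (GENCODE M21, the union of all exons), Srf was highest, with 43.5 ± 6.29 CPM per kb in KO and 55.8 ± 4.26 CPM per kb in WT libraries (SD, n = 3 each). Klf4 came next, with 36.0 ± 8.72 in KO and 38.4 ± 2.31 CPM per kb in WT libraries. The mean of Srf lay within the SD of Klf4 in KO libraries and above it in WT libraries. Mir143hg followed, with 23.0 ± 4.97 CPM per kb in KO and 6.09 ± 1.94 CPM per kb in WT libraries, over the length of the shorter GENCODE transcript. The annotation used for counting is not given, so the level of Mir143hg per kb and its place in this order are uncertain. In WT libraries the means of Foxo1 (5.74 ± 0.49), Myocd (4.91 ± 0.70) and Mef2c (4.36 ± 0.41 CPM per kb) lay within the SD of Mir143hg. In KO libraries Mir143hg lay above Foxo1 (6.84 ± 0.50), Mef2c (5.54 ± 0.38) and Myocd (4.73 ± 0.76 CPM per kb). Tbx18 (2.98 ± 0.37 in KO and 1.77 ± 0.24 CPM per kb in WT libraries) and Prdm6 (2.48 ± 0.94 in KO and 0.602 ± 0.27 CPM per kb in WT libraries) were low. In KO libraries the mean of Tbx18 lay within the SD of Prdm6. Klf5 was lowest, at 0.0970 ± 0.035 CPM per kb in KO and 0.0729 ± 0.015 CPM per kb in WT libraries. A length for Mir145 would be shorter than a read, and none was used.

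Set against contractile RNA of the same library, some regulators were lower and others higher in KO libraries. The divisor itself differed, at 5777 to 8097 CPM in KO and 2875 to 4218 CPM in WT libraries. A gene of equal CPM in both groups is therefore lower in KO libraries by this measure. Mef2c, Foxo1 and Tbx18 had negative differences despite positive log2 fold changes of 0.35, 0.25 and 0.75. The measure is the log2 of a gene's CPM over the summed CPM of the 17 contractile genes, and since it comes from the contrast known when the genes were chosen it is given without a test. Both terms are RNA of the whole root, heart muscle included, so it is not a level per smooth muscle cell. For Myocd it was -7.69, -7.85 and -7.99 in KO 1 to KO 3, against -6.74, -7.12 and -6.30 in WT 1 to WT 3, a mean difference of -1.12 with no overlap. Srf differed by -1.43, Klf4 by -1.19, Foxo1 by -0.81 and Mef2c by -0.72, also with no overlap. For Mir143hg the values were -7.47, -6.64 and -7.05 in KO 1 to KO 3, against -7.97, -7.78 and -8.03 in WT 1 to WT 3, a mean difference of 0.87. Prdm6 differed by 1.01 and Mir145 by 1.32, with every KO library above every WT library. Tbx18 differed by -0.31, with KO 2 and WT 2 almost level, and Klf5 overlapped between groups. The divisor did not overlap between groups either, and the share of all genes without overlap by this measure was not computed. Nothing is therefore read from a lack of overlap here.

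**Figure D3:**
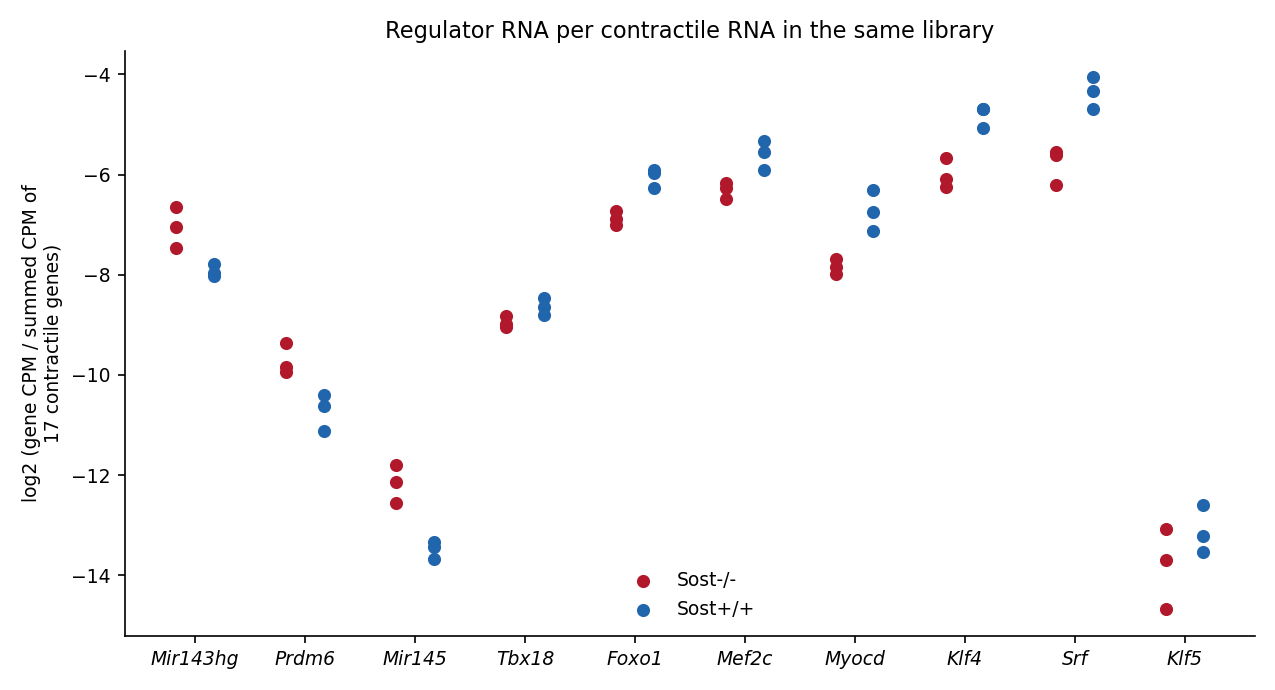
Log2 of each regulator's CPM over the summed CPM of 17 smooth muscle contractile genes in the same library, with KO libraries (Sost-/-) left of WT libraries (Sost+/+); each point is a library. KO points lie above WT points for Mir143hg, Prdm6 and Mir145, and below them for Foxo1, Mef2c, Myocd, Klf4 and Srf. The summed contractile CPM was itself higher in every KO library, so a gene of equal CPM in both groups lies lower in KO libraries.

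Contractile genes, the known targets of SRF and myocardin, were mostly higher in these whole roots, which include bordering heart muscle. Which cells the RNA of Myocd and Srf came from was not measured. Of 17 contractile genes 12 rose and 0 fell (DESeq2 called 12, and edgeR with robust dispersion called 4), with a median log2 fold change of 1.39, against 0.0066 over all tested genes, while Myocd and Srf did not pass. Itga8, an integrin subunit gene (2.20, SE 0.33), Kcnmb1, a potassium channel subunit gene (2.06, SE 0.34), the calponin gene Cnn1 (1.70, SE 0.28) and Myl9 (1.62, SE 0.26) had the smallest p. Without WT replicate 1 and without KO replicate 3 edgeR called 0 of them (14 and 13 at an unadjusted p under 0.05), while DESeq2 called 8 and 6, and without WT replicate 3 edgeR called 1. Over all lists of partners, relatives, targets and markers, edgeR made 31 calls, against 0 without WT replicate 1, 0 without KO replicate 3 and 6 without WT replicate 3.

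Of 17 SRF cofactors and partners 2 rose and 1 fell, with a median log2 fold change of 0.03. Csrp2 and Csrp1, LIM domain proteins that link SRF to GATA factors, rose by 1.47 (SE 0.23, edgeR adjusted p = 0.0205) and 0.91 (SE 0.17, edgeR adjusted p = 0.0311). Abra, also called STARS, an actin-binding activator of SRF signalling in striated muscle, fell to 84.2 ± 9.18 CPM in KO libraries, against 174 ± 37.7 CPM in WT libraries (SD, n = 3 each, log2 fold change -1.05, SE 0.16, edgeR adjusted p = 0.0180). Cardiomyocyte markers were lower in the same libraries: 3 of 18, Nppb, Myoz2 and Csrp3, fell, with a median of -0.47 (DESeq2 called 12). Mkl1 and Mkl2, the myocardin-related coactivators that carry actin signals to SRF and were named here outside the rule for named genes, did not pass, at 0.19 (SE 0.13) and 0.21 (SE 0.12) on the log2 scale.

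Of 17 actin and cytoskeletal genes known as SRF targets, 4 rose and 0 fell (DESeq2 called 8), with a median log2 fold change of 0.10. Flna, the filamin A gene, rose by 1.23 (SE 0.22), Actn1, an actin crosslinker gene, by 0.96 (SE 0.17), Dstn, an actin-severing protein gene, by 0.70 (SE 0.12) and Filip1l by 0.58 (SE 0.13). Of 15 immediate early genes only Atf3, a stress-induced factor gene, passed in edgeR, and it fell (-0.91, SE 0.12, edgeR adjusted p = 0.0151).

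No reported target of miR-143 or miR-145 passed in edgeR. Of 16 such genes, 0 rose and 0 fell (4 had an unadjusted p under 0.05, and DESeq2 called 1), with a median log2 fold change of -0.08. Over all tested genes edgeR called 2.55% and 20.2% had an unadjusted p under 0.05, while DESeq2 called 7.83%. Nothing about the targets is read from these counts. Igf1r, the insulin-like growth factor receptor gene, had the smallest p, at 0.34 (SE 0.11, edgeR adjusted p = 0.135). Klf4 and Klf5, the targets among the 10 regulators, did not pass either. A p that misses the threshold does not show that levels were equal, and repression of protein was not measured.

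Relatives of the regulators mostly did not pass, as was so for all tested genes. Over all of these, edgeR called 2.55% and 20.2% had an unadjusted p under 0.05, while DESeq2 called 7.83%. Nothing about the families is read from the counts below. Of 12 tested KLF genes other than Klf4 and Klf5, 0 passed in edgeR (1 at an unadjusted p under 0.05, 1 by DESeq2), with Klf8 at 0.94 (SE 0.24, edgeR adjusted p = 0.0838). Of 7 other MEF2 and class IIa deacetylase genes, 0 passed in edgeR, 0 had an unadjusted p under 0.05 and DESeq2 called 0, with Hdac9 at 0.21 (SE 0.12). Of 10 other PRDM genes, 0 passed in edgeR, 0 had an unadjusted p under 0.05 and DESeq2 called 0, with Prdm16 at 0.18 (SE 0.13). Of 7 other T-box genes, 0 passed in edgeR (1 at an unadjusted p under 0.05, 1 by DESeq2), with Tbx1 at 0.73 (SE 0.20, edgeR adjusted p = 0.0967). Of 17 FOXO genes and targets, 1 rose, Pik3ip1, an inhibitor of PI3 kinase (0.45, SE 0.09, edgeR adjusted p = 0.0338), and DESeq2 called 2. Whether these genes differ from Prdm6 or Tbx18 in their response was not tested.

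Of 27 other tested regulators of smooth muscle state, 4 rose and 0 fell (DESeq2 called 6), with a median log2 fold change of 0.17. Foxc1, a forkhead factor gene of vessel and valve development, had 27.7 ± 2.58 CPM in KO and 14.2 ± 2.40 CPM in WT libraries (SD, n = 3 each, log2 fold change 0.96, SE 0.14, edgeR adjusted p = 0.0151). Its relative Foxc2 rose by 0.67 (SE 0.13) and the Notch target Hey2 by 1.33 (SE 0.22). Tead3, a partner of the coactivator YAP, rose by 0.48 (SE 0.10). Of 14 genes of modulated smooth muscle cells, 2 rose, the intermediate filament gene Vim (0.60, SE 0.12) and the matrix Gla protein gene Mgp (0.63, SE 0.14). That count depended on the method: it was 1 with RLE size factors or limma-voom, 0 with limma on log2 normalized values, 4 with no filter on low counts and 6 with DESeq2.

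**Figure D4:**
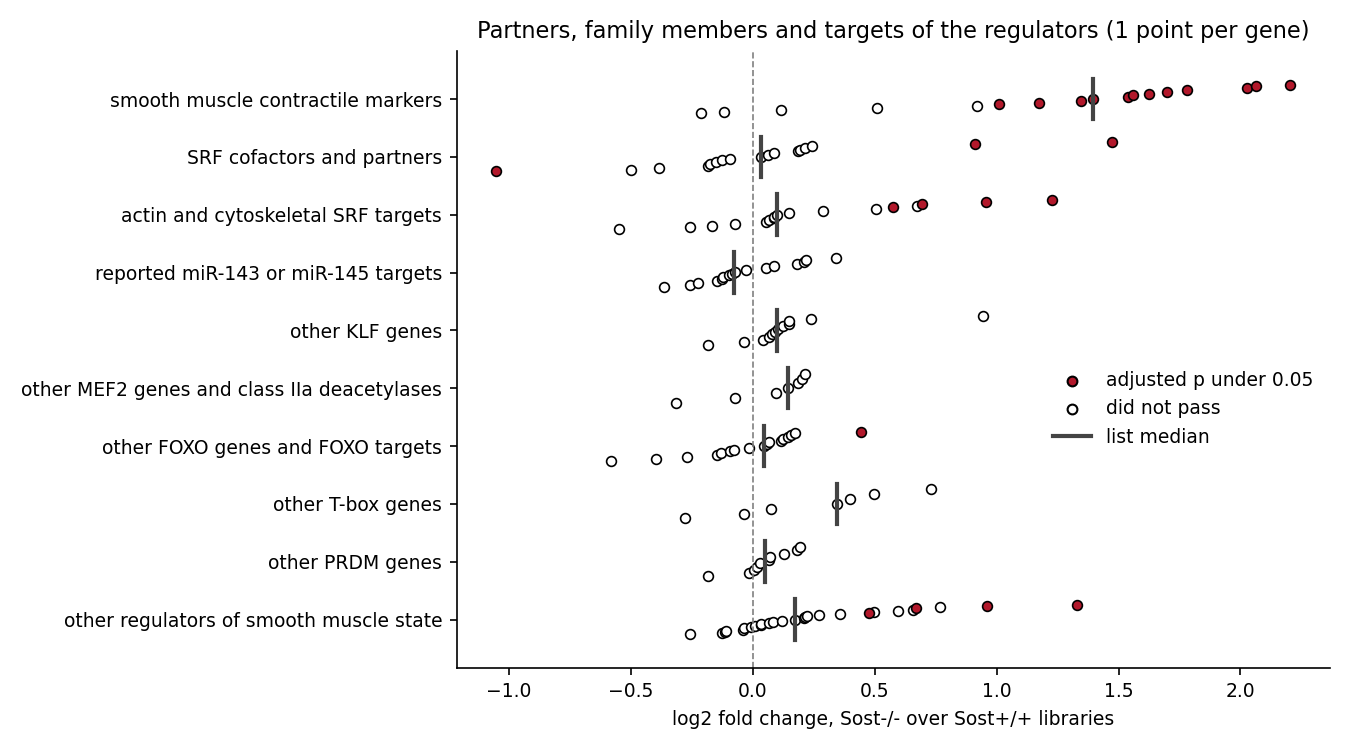
Log2 fold change, Sost-/- over Sost+/+ libraries, of the tested genes in 10 lists of partners, relatives and targets; each point is a gene, filled where the adjusted p was under 0.05, and the vertical bar is the list median. The contractile list has its median at 1.39, while the medians of the SRF partner and microRNA target lists are 0.03 and -0.08.

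Likeness to a regulator over the 6 libraries was measured by the root mean square difference of log2 CPM after each gene's mean was removed. The candidates were 12735 genes that had a name and at least 1 CPM on average, and the regulators themselves were left out. A regulator could therefore not be named as most like another, and Mir145 was not compared with its host Mir143hg here. For Prdm6 the most alike candidates included Actg2, the smooth muscle gamma actin gene (0.14), and Npy1r (0.17). For Mir143hg they were Cd5l (0.20), Mmp3 and Hoxa3 (both 0.21), and for Mir145 Cd5l, Stbd1 and Cnn1 (all 0.30). Tbx18 was most like Gfra4 (0.045), Tmem110 and Tle2 (both 0.059). Myocd was most like Zfp592 (0.040), Siah2 and Zfp609, and Srf was most like Cpox (0.024), Ube2c and Fscn1. Klf4 was most like Hic2 (0.047) and the growth factor feedback genes Spry1 and Spry4, Klf5 like Cdh4, Cthrc1 and Zfp369, Mef2c like Ttc8, Ppp4r1l-ps and Fbxw9, and Foxo1 like Cep78, Raver2 and Fam171a1. With 6 libraries in 2 groups, many genes share such a pattern, and likeness says nothing of shared control.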

How the data were processed

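The authors deposited whole-number read counts per gene symbol and a normalized signal, which equals the deposited counts divided by 1 factor per library. For the reads, mm10 was the genome build, and DRAGEN, HTSeq and DESeq2 were used, per the submitters' processing notes; which versions, annotation and strand setting applied is not given in the sources used here. Per the labels' protocols, frozen roots were extracted with Trizol and made into directional libraries. Replicates were numbered in accession order. No 2 libraries were alike within sampling noise (chi-square per degree of freedom 34.1 to 170).

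Genes were kept by filterByExpr (minimum count 10, total 15) and tested with edgeR 4.0.16 after TMM scaling (R 4.3.3); SE is the absolute log2 fold change over the square root of F. DESeq2 1.42.0 and limma 3.58.1 were alternatives. On simulated counts for this comparison over 15008 genes, edgeR recovered 24.1%, 69.5% and 93.0% of changes of 0.5, 1 and 2 on the log2 scale, with 14 of 128 calls false. The 10 members and the lists were chosen with earlier results of these data known. Lists name up to 4 passing members of smallest p, or the one of smallest p. Lists are described by counts and medians, with no set test. Markers of endothelial cells, fibroblasts, macrophages, adipocytes and skeletal muscle were counted too. Older symbols were matched through RefSeq synonyms. Not every gene that the rule for likeness named is reported here.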

Additional observations from a re-analysis of the deposited data

How the results depend on the processing

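Mir143hg, Mir145, Prdm6 and Tbx18 were higher under all 14 other settings with 6 libraries in edgeR, DESeq2 or limma, or with 5 in edgeR, at 1.76 to 2.20, 2.17 to 2.62, 1.69 to 2.43 and 0.65 to 0.84 on the log2 scale, with adjusted p up to 0.0850, 0.109, 0.132 and 0.158. Srf stayed negative (-0.48 to -0.27). Scaling, filters, robust dispersion and limma left the count of regulators at 4, and DESeq2 gave 5. Signs turned for Myocd without WT replicate 3 (0.059, DESeq2 0.053) and without KO replicate 2 (0.071, DESeq2 0.061), within -0.15 to 0.07 over edgeR leave-outs, and for Klf4 without KO replicate 2 (0.060, DESeq2 0.051), within -0.29 to 0.06 in edgeR. With a library left out, edgeR called 0 to 4 regulators, 0 to 349 genes of all (385 with 6 libraries) and 0 to 25 list genes outside the regulators (31), and DESeq2 called 4 to 5 regulators. Leave-outs by DESeq2 were chosen after seeing the data. In them DESeq2 called 624 genes of all without WT replicate 1, 941 without WT 2, 1313 without WT 3, 1221 without KO 1, 852 without KO 2 and 368 without KO 3, and 38, 55, 56, 62, 58 and 27 list genes in that order. With all 6 libraries DESeq2 called 1161 genes and 59 list genes. The cause of these differences was not tested. No paired analysis was possible because replicate numbers are accession order only. Depth limits Klf5, Mir145 and Mir143, each with under 100 counts in every library.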

Other observations

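Of 12 endothelial, 10 fibroblast, 9 macrophage, 9 adipocyte, 8 mesothelial and epicardial and 8 skeletal muscle markers tested, edgeR called 0 (2, 3, 2, 6, 2 and 0 at an unadjusted p under 0.05, and 0, 2, 1, 1, 0 and 0 by DESeq2, in that order). Their median log2 fold changes were -0.07, 0.23, 0.14, 1.40, 0.87 and -0.22, and 1, 8, 5, 9, 7 and 3 of them had a positive sign, in the same order. With no filter on low counts, edgeR called 1 fibroblast and 2 adipocyte markers. Of smallest p were Tie1 (-0.29, SE 0.11), Lum (0.46, SE 0.11), Mrc1 (0.34, SE 0.10), Pck1 (2.05, SE 0.50), Gpm6a (0.79, SE 0.33) and Ckm (-0.34, SE 0.17). Over all tested genes edgeR called 2.55% and 20.2% had an unadjusted p under 0.05, while DESeq2 called 7.83%.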
